A study of Mus musculus with 32 samples.

Results

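A set of 44 genes that encode the machinery of the cell division cycle were followed through 4 stages of mouse brain development and compared between wild-type brains and brains lacking Dhcr7. The members were the 44 gene symbols named for this set, looked up among the 55291 symbols of each count table, and all 44 were present in the tables of all 4 stages. They fall into 4 roles. There are 4 cyclins of the G1 phase, 14 genes of S phase (DNA replication and supply of its nucleotides), 4 transcription factors of the cell cycle and 22 genes of mitosis. The rule is a list of names with no threshold on a measured value.

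RNA of whole brains of C57BL/6J mice was enriched for polyA transcripts and sequenced with paired reads of 150 bp. The brains were taken on the day of birth (PND0) or before it, at E12.5, E14.5 or E16.5 (days of embryonic life). At each stage 4 libraries came from Dhcr7+/+ brains (WT) and 4 from Dhcr7-/- brains (KO), which makes 32 libraries in 8 groups. Dhcr7 encodes a reductase that makes cholesterol from its direct precursor, and the KO is the mouse model of Smith-Lemli-Opitz syndrome that the series title names. The labels name no Cre or other transgene and give no litter, sex or preparation day, so p-values measure the spread between these libraries, which may be partly technical.

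Libraries held between 13868100 and 28318900 counts assigned to genes, and no member had a count of 0 in any library. The lowest count of a member in a library was 26 and the median was 760.5. Dhcr7 itself was read at 58.6 to 102 CPM (a gene's counts scaled to a common library size) in the 16 WT libraries and at 11.5 to 26.7 CPM in the 16 KO libraries, so the groups did not overlap at any stage. Dhcr7 counts did not reach 0 in KO brain. Markers of neural progenitors and of neurons were present in every library, as whole brain requires. E12.5 KO replicate 1 stood apart, with 5.64% of its counts from 1 ribosomal RNA gene against 0.191 to 0.376% in the other 7 libraries of that stage. E16.5 WT replicate 1 had 3.75% against 0.356 to 0.626%. The E12.5 KO medians of S phase and mitosis genes and the count of members past the threshold are therefore given with and without KO replicate 1. Estimates of single genes at E12.5 include that library.

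The division cycle runs from G1, when D cyclins with their kinases release E2F factors from the retinoblastoma protein, through S phase, when the MCM helicase opens replication origins, to mitosis, which is driven by CDK1 with B cyclins, checked at the kinetochore and ended by the anaphase-promoting complex. E2F1 and E2F2 are known to switch on S phase genes, and MYBL2 and FOXM1 to switch on those of G2 and mitosis. In the embryonic brain these transcripts are known to come mainly from the neural stem and progenitor cells that line the ventricles, which become a smaller part of the tissue as neurons accumulate. In RNA of whole brains, fewer dividing cells and less RNA per dividing cell cannot be told apart.

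Every member fell in WT brain between E12.5 and PND0. In the edgeR quasi-likelihood fit of those 8 libraries, 44 of 44 members had an adjusted p under 0.05 with a lower level at PND0, beside 36.4% of all 17681 genes tested. The median log2 fold change was -3.03 over the 44 members and -0.047 over all genes tested. By role it was -3.14 for the mitosis genes, -2.69 for the S phase genes, -2.60 for the transcription factors and -2.03 for the G1 cyclins. The level left at PND0 was 11.2 to 27.7% of E12.5 across the S phase genes other than Mcm3 (10.1%), and 7.89 to 16.4% across the mitosis genes. KO brain went the same way: 44 of 44 members fell from E12.5 to PND0, beside 32.5% of genes tested, with a median log2 fold change of -2.80.

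**Figure D1:**
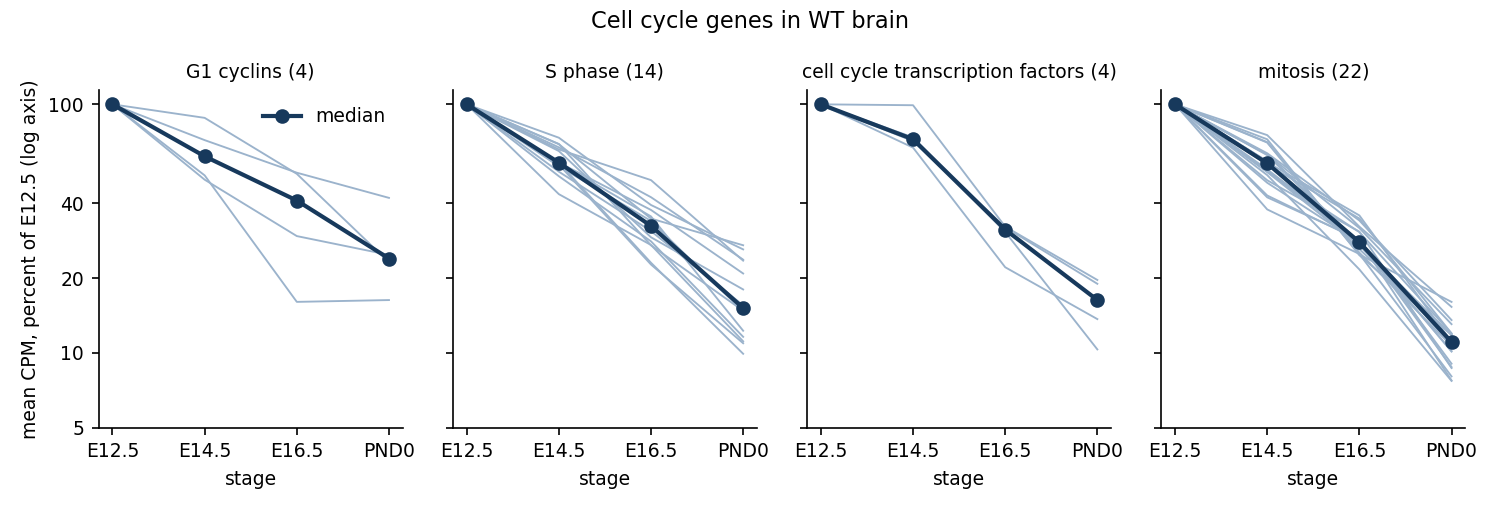
Mean level in WT brain (CPM, n = 4) of each cell cycle gene as a percentage of its own E12.5 mean, on a log axis, by stage and role. Thin lines are single genes and the thick line is their median. Every line ends below where it began. In the fitted values the mitosis genes have the lowest role median. They end between 7.89 and 16.4% of E12.5, a range that overlaps that of the S phase genes.

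Among the mitosis genes, Cdc20, which activates the anaphase-promoting complex, fell most. Its WT libraries read 141.9, 149.3, 112.8 and 148.8 CPM at E12.5 and 7.86, 12.4, 8.66 and 13.7 CPM at PND0 (log2 fold change -3.66, SE 0.18, adjusted p 5.43e-08). Mki67, the proliferation marker that coats mitotic chromosomes, fell by the same amount on the log2 scale, 3.66 (SE 0.11, adjusted p 1.56e-08). It was read at 514.2, 542.0, 473.0 and 489.5 CPM at E12.5 and at 39.1, 38.3, 33.1 and 46.1 CPM at PND0. Within each of the stages the 4 WT libraries of either gene lay close together relative to that fall. Cenpe, a kinetochore motor, fell by 3.601 on the log2 scale from 118.4 ± 5.68 to 9.53 ± 1.64 CPM (SD, n = 4 each), and Top2a, the topoisomerase that untangles sister chromatids, fell by 3.49 from 551.1 ± 28.6 to 47.9 ± 4.27 CPM. The smallest fall of a mitosis gene was that of Plk1, the polo kinase of mitotic entry, at -2.61 (SE 0.18), from 83.4, 75.9, 57.7 and 79.95 CPM to 11.5, 14.8, 8.16 and 13.2 CPM.

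Among the S phase genes the subunits of the MCM helicase spanned the range. Mcm3 fell most. Its WT libraries read 174.4, 177.4, 133.3 and 158.7 CPM at E12.5 and 15.2, 17.9, 16.3 and 14.53 CPM at PND0 (log2 fold change -3.31, SE 0.12). Mcm6 fell least, by 1.85 (SE 0.089), from 189.4, 183.6, 149.9 and 176.0 CPM to 49.0, 47.0, 49.1 and 44.4 CPM. Mcm6 thus kept 27.7% of its E12.5 level where Mcm3 kept 10.1%, although the proteins are subunits of the same hexamer. Pcna, the sliding clamp of the replicative polymerases, fell by 2.06 (SE 0.076) and Rrm1, the large subunit of ribonucleotide reductase, by 1.91 (SE 0.070). Rrm1 kept 26.6% of its E12.5 level and its partner subunit Rrm2 kept 15.1%.

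E2f2 fell most among the transcription factors, from 30.3, 31.4, 29.8 and 33.6 CPM at E12.5 to 3.22, 2.98, 2.74 and 3.98 CPM at PND0 (log2 fold change -3.24, SE 0.14). Foxm1 fell least, by 2.32 (SE 0.11), from 108.8 ± 13.1 to 21.4 ± 2.18 CPM (SD, n = 4 each). E2f1 fell by 2.36 (SE 0.16). Of the G1 cyclins, Ccnd1 (cyclin D1) fell by 2.59 (SE 0.13) and Ccnd2 (cyclin D2) by 2.08 (SE 0.096). Ccne2, which with its kinase starts S phase, fell by 1.22 (SE 0.13), the smallest fall of any of the 44 genes. It was read at 23.9, 28.2, 22.6 and 22.5 CPM at E12.5 and at 9.13 to 11.5 CPM (median 10.1) at PND0.

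The roles differed in when they fell. From E12.5 to E14.5, 43 of 44 members fell (30.5% of all genes tested did), with a median of -0.80. The exception was Foxm1, whose WT libraries read 111.0, 114.1, 90.0 and 120.1 CPM at E12.5 and 109.9, 96.5, 117.3 and 108.0 CPM at E14.5, with overlapping groups (log2 fold change -0.039, SE 0.092, adjusted p 0.734). From E14.5 to E16.5, all 44 members fell (28.2% of genes tested), with a median of -0.93. Foxm1 then fell 3.03-fold to 35.1 ± 7.82 CPM, and the 4 transcription factors had a median of -1.41. From E16.5 to PND0, 42 of 44 members fell (27.2% of genes tested), with a median of -1.24. The consecutive steps share the libraries of the stage between them, so they are not independent.

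The last step was the largest for 18 of the 22 mitosis genes and for 8 of the 14 S phase genes. Its median was -1.38 for mitosis genes, -1.05 for S phase genes and -0.32 for G1 cyclins. Both members that did not pass in that step were G1 cyclins. Ccnd1 was at 31.3, 32.6, 39.5 and 36.3 CPM at E16.5 and at 41.3, 36.8, 35.7 and 28.3 CPM at PND0 (log2 fold change -0.0059), after it had fallen by 1.67 between E14.5 and E16.5. Ccne1 had a log2 fold change of -0.28 there. Ccnd2 fell too but differed from Ccnd1 in timing, with -0.21 in the first step, -0.73 in the second and -1.21 in the last. The labels give no embryonic day for PND0, so the last step may span more time than the others. The falls are given per step and not per day, and no test compared the steps with each other. Each stage was deposited as a table of its own, so that stage and any difference in handling between tables cannot be told apart.

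Per kilobase of the longest annotated transcript, the most abundant member was Pcna at every stage, at 160.0 CPM per kb in E12.5 WT brain and 37.6 in PND0 WT brain. The least abundant was E2f2 at E12.5 (6.60 CPM per kb) and at PND0 (0.68), and Gins2, a subunit of the GINS helicase cofactor, at E14.5 (3.04) and E16.5 (1.90). The highest mitosis gene was Top2a at all 4 stages in WT brain, at 105.6 CPM per kb at E12.5 and 9.18 at PND0. Ccnd2 was the highest G1 cyclin, at 113.5 CPM per kb at E12.5.

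The summed level of cell type markers differed between stages too. In WT brain the 12 markers of neural progenitors summed to 2747 ± 330 CPM at E12.5 and 1378 ± 29.9 CPM at PND0, and the 9 of intermediate progenitors to 866 ± 217 and 185 ± 22.9 CPM. The neural progenitor markers did not all fall: 9 passed as lower and 2 as higher, beside 36.4 and 34.5% of all genes tested. The 12 neuron markers summed to 4358 ± 954 CPM at E12.5 and 8114 ± 415 CPM at PND0 (SD, n = 4 for each). All 12 progenitor and all 12 neuron markers were above 0 in every library. Erythroid markers ran from 2006 to 9021 CPM across the E12.5 WT libraries and from 197 to 261 CPM at PND0. Markers of meninges and mesenchyme ran from 1453 to 3353 CPM at E12.5 and from 531 to 646 CPM at PND0, and 6 of these 7 genes fell (median -1.93). The part of these shifts in the fall of the cell cycle genes was not tested.

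Other genes of the cycle were read from lists of related genes. All 32 other replication genes fell in WT brain from E12.5 to PND0, where 36.4% of all genes tested fell, with a median of -2.24, led by Cdc6, a loader of the MCM helicase (-3.72, SE 0.26), and Gmnn, the geminin inhibitor of origin licensing (-3.62, SE 0.14). Of 40 other mitosis genes, 39 fell with a median over all 40 of -2.71, led by Aspm, a spindle pole protein of neural progenitors (-3.69, SE 0.12), and Cks2, a CDK subunit (-3.62, SE 0.14). The exception was Cit, listed for the citron kinase of cytokinesis, which rose by 0.98 (SE 0.081, adjusted p 1.42e-06). Counts per gene do not tell which transcripts of Cit rose, so this is not a measure of the kinase form alone. Its WT mean was 46.4 ± 4.51 CPM at E12.5, 30.3 ± 2.03 at E16.5 and 89.7 ± 3.12 at PND0 (SD, n = 4 each). All 19 other cyclins, CDKs and E2F family genes fell, with a median of -1.46, led by the mitotic phosphatase gene Cdc25c (-3.10) and Cdk2 (-2.51).

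The 14 genes that restrain the cycle did not move together. From E12.5 to PND0, 9 fell (36.4% of all genes did), 2 rose (34.5%) and 3 did not pass. Cdkn1a, the p21 inhibitor of CDKs, rose from 20.3 ± 1.99 to 48.4 ± 9.35 CPM (SD, n = 4 each, log2 fold change 1.28, SE 0.14), and Rbl2, the p130 pocket protein, rose by 0.57 (SE 0.080). Gadd45g and Btg2, antiproliferative genes that are also on the list of intermediate progenitor markers, fell by 3.51 (SE 0.22) and 2.57 (SE 0.20).

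The promoters of the members were searched because the genes fell together. RefSeq promoters (GRCm38.p6, 250 bases before to 50 after the start) were found for 35 of the 44 members, 37 promoters in all. Searched on both strands were the CCAAT box (CCAAT), the cell cycle genes homology region or CHR (TTTGAA or TTCGAA), which is bound by the complexes that hold MYBL2 and FOXM1, and the E2F site (TTTCCCGC, TTTCGCGC, TTTGCCGC or TTTGGCGC). Matches on opposite strands that overlap were counted separately. The promoters of the mitosis genes Top2a, Mki67 and Cdk1 are shown for their CCAAT and CHR letters, and that of Mcm6 for its E2F letters. Of the genes named by rule, these were picked for holding the most such matches in the 200 bases before the start. Each line holds the 200 bases before the start, with capitals that mark CCAAT and CHR matches on either strand in Top2a, Mki67 and Cdk1, and E2F matches alone in Mcm6. They lie on the minus strand at chr11:99024190-99024389, chr7:135716380-135716579, chr10:69352913-69353112 and chr1:128359706-128359905, in that order.
Top2a: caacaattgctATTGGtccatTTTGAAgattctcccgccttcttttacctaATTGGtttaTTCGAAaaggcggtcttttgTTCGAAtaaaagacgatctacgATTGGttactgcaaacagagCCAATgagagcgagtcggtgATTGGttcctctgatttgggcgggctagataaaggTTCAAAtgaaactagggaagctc
Mki67: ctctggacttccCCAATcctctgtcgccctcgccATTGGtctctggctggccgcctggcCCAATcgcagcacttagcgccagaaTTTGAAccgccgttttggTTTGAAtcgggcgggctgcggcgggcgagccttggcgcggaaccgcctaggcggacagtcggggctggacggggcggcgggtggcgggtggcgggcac
Cdk1: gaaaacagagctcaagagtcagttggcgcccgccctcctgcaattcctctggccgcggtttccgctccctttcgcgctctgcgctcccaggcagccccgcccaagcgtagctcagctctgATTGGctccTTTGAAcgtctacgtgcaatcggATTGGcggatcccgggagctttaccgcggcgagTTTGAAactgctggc
Mcm6: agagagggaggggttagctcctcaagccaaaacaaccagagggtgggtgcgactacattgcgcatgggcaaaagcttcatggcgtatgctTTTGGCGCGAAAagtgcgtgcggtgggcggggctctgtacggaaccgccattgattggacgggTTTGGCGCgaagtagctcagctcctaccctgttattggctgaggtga

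In these windows of 300 bases a CHR match was in 16 of the 19 mitosis promoters and 3 of the 13 S phase promoters, against 17.6% of the promoters of protein-coding genes. A CCAAT match was in 17 of 19 mitosis promoters and 10 of 13 S phase promoters, against 38.2%. An E2F match was in 5 of 13 S phase promoters and 1 of 19 mitosis promoters (Cdk1), against 2.85%. The stretch shown for Top2a holds 9 CCAAT and CHR matches, that of Mki67 holds 5, that of Cdk1 holds 4, and that of Mcm6 holds 3 E2F matches, of which a pair overlaps. These stretches were picked for their matches and are not typical. In the windows of 300 bases, mitosis promoters held on average 2.21 CCAAT and 1.21 CHR matches. The S phase promoters held on average 0.769 E2F matches. A match describes the letters and was not tied to the binding of a factor in these data.

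Loss of Dhcr7 changed no member past the threshold at any stage. In the edgeR quasi-likelihood fits, 0 of 44 members had an adjusted p under 0.05 in any stage, where 0.0177, 0.527, 0.0462 and 1.44% of all genes tested passed from E12.5 to PND0. At an unadjusted p under 0.05, 0, 15, 14 and 1 members were lower in KO at the successive stages (3.17, 4.45, 6.58 and 9.40% of all genes) and 0, 0, 0 and 3 were higher (1.52, 4.28, 4.96 and 8.57%). Groups did not overlap, with KO lower, for 0, 2, 0 and 0 members (1.10, 2.76, 2.79 and 5.84% of all genes), and with KO higher for 0, 0, 0 and 2 members (1.43, 2.01, 3.59 and 6.03%). DESeq2 called 0, 1, 3 and 1 members, which were Top2a at E14.5, Pcna, Rrm1 and Top2a at E16.5, and Pcna at PND0. DESeq2 called more genes altogether, with 30 of 22998 given an adjusted p at E12.5, 122 of 10312 at E14.5, 168 of 3407 at E16.5 and 921 of 12809 at PND0. A gene given no adjusted p could not be called, and the members among such genes were not counted. Members that DESeq2 did not call may therefore have been left untested there. From the earliest stage to the latest, 28, 42, 41 and 15 of the 44 members had a lower KO estimate, against 49.3, 49.4, 50.0 and 50.1% of all genes. The median log2 fold change of the members was -0.036, -0.097, -0.22 and 0.086, and that of all genes was within 0.0031 of 0 at each stage. The members were read in the same 8 libraries at each stage, so their shared sign does not count as repeated evidence.

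**Figure D2:**
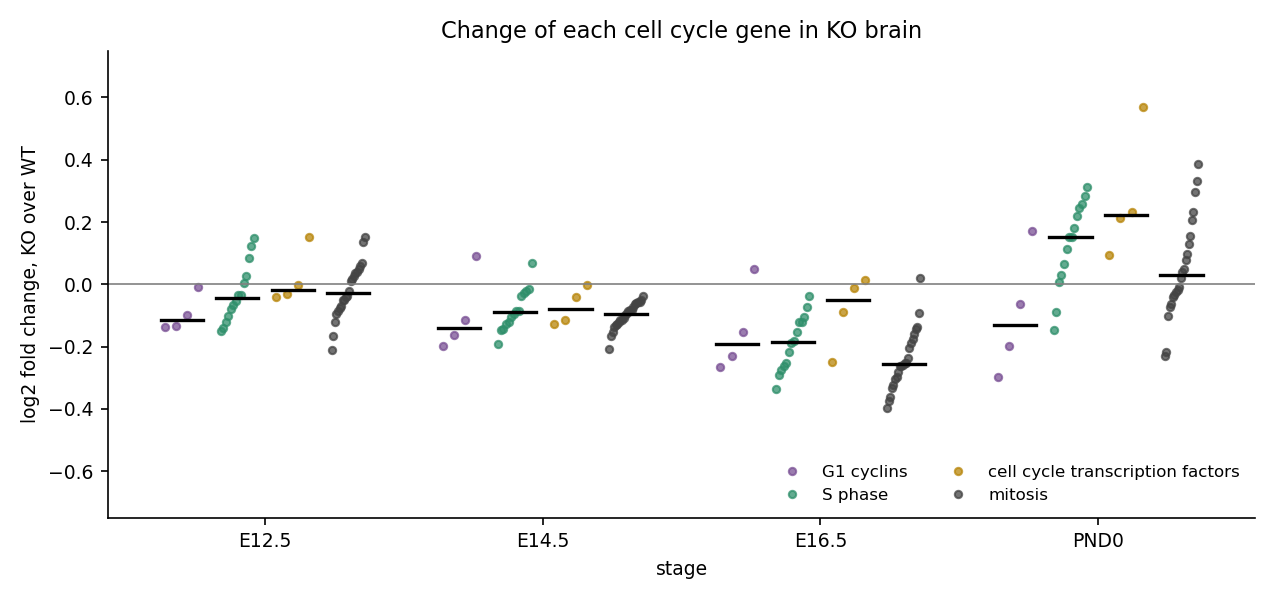
Log2 fold change of KO over WT for each of the 44 cell cycle genes, by stage and role, from the fits of 4 KO and 4 WT libraries. Points are genes in order of their value within a role, black bars are role medians and the grey line is 0. Of the 44 points at each stage, 42 lie below 0 at E14.5 and 15 at PND0.

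At E12.5 the smallest adjusted p of any member was 0.875, a value that several members shared. Among the S phase genes Mcm2, an MCM subunit, was at 210.5, 222.5, 180.7 and 208.2 CPM in WT and at 185.6, 192.9, 208.3 and 168.9 CPM in KO, with overlapping groups (log2 fold change -0.14, SE 0.099, adjusted p 0.875). Cenpe was at 116.9, 126.6, 113.7 and 116.3 CPM in WT and at 95.8, 105.9, 118.7 and 107.5 CPM in KO, also overlapping (-0.16, SE 0.087, adjusted p 0.875). E2f1 was at 57.4, 60.7, 49.0 and 68.5 CPM in WT and at 76.5, 63.6, 71.8 and 53.5 CPM in KO (0.15, SE 0.13, adjusted p 0.899). Neither gene separated the genotypes. Ccnd1 was at 218.4, 218.9, 178.5 and 254.7 CPM in WT and at 173.8, 208.0, 245.4 and 176.6 CPM in KO (-0.13, SE 0.14, adjusted p 0.912). Mki67 had the lowest estimate, -0.21 (SE 0.15). Its KO libraries read 309.1, 466.0, 507.1 and 484.8 CPM, of which the lowest was replicate 1, the library with the high ribosomal RNA share. The same library was the highest KO library for Pcna, at 341.0 CPM against 220.2 to 269.2, and for Cdk1, at 131.8 CPM against 83.7 to 92.2. Without it the median was -0.12 for S phase genes (from -0.045) and -0.090 for mitosis genes (from -0.030), and again no member passed. E12.5 libraries also differed in their tissue makeup. Erythroid markers summed to 2006 to 9021 CPM in WT and 1608 to 4880 in KO, and markers of meninges and mesenchyme to 1453 to 3353 and 693 to 2794 CPM. The KO estimate was below 0 for all 9 erythroid and all 7 meninges and mesenchyme markers, and for 7 of 8 oligodendrocyte lineage markers. It was above 0 for 9 of 9 intermediate progenitor, 11 of 12 neuron and 8 of 12 neural progenitor markers. The part of these shifts in the result was not tested.

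At E14.5 the estimates were small and nearly all below 0. All 22 mitosis genes, 13 of 14 S phase genes, all 4 transcription factors and 3 of 4 G1 cyclins had a lower KO estimate. The 15 members with an unadjusted p under 0.05 were all lower in KO (4.45% of all genes were lower at that level), 9 of them mitosis genes. Top2a had the smallest p. Its WT libraries read 262.8, 270.9, 285.9 and 271.6 CPM and its KO libraries 242.9, 233.9, 259.3 and 256.6 CPM (log2 fold change -0.13, SE 0.035, adjusted p 0.0839). The KO libraries all lay below the WT libraries. Top2a passed in some alternative fits, with an adjusted p of 0.0462 in DESeq2, 0.0430 with length offsets and 0.0167 with GC offsets, fits that called 122 of 10312, 114 of 17837 and 99 of 17837 genes.

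RNA measures and cell type markers differed between the E14.5 libraries as well. KO replicates 3 and 4 had 2.68 and 2.55% of their counts from the ribosomal RNA gene, against 0.869 to 1.17% in the other 6 libraries, and they stood apart from KO replicates 1 and 2 (chi-square per degree of freedom 14.3 to 17.9, against 3.78 to 4.77 within those pairs). The KO estimate was below 0 for 10 of 12 neural progenitor markers, 8 of 9 intermediate progenitor markers and 7 of 7 markers of microglia and macrophages, and above 0 for 7 of 7 markers of endothelium and pericytes and 10 of 12 neuron markers. Progenitor markers summed to 2254 to 2456 CPM in WT and 2231 to 2336 CPM in KO. The part of these in the E14.5 estimates was not tested.

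Mcm3 was the other member whose E14.5 groups did not overlap, where 2.76% of all genes lay wholly lower in KO. It was at 90.4, 91.9, 100.9 and 91.7 CPM in WT against 82.0, 83.8, 86.1 and 86.5 CPM in KO (log2 fold change -0.14, SE 0.044, adjusted p 0.204). Ccnd2 was at 593.1, 637.6, 671.8 and 633.4 CPM in WT against 571.1, 566.1, 605.6 and 589.8 CPM in KO (log2 fold change -0.12, SE 0.033, adjusted p 0.120). Its lowest WT library lay among the KO libraries. Ccnd1 had a log2 fold change of -0.16 (SE 0.051, adjusted p 0.221) and its groups overlapped. Foxm1 was at 109.9, 96.5, 117.3 and 108.0 CPM in WT against 101.7, 93.1, 99.4 and 102.8 CPM in KO, also with overlap (-0.12, SE 0.048, adjusted p 0.451). Aurkb, the kinase of the chromosomal passenger complex, had the lowest estimate, -0.21 (SE 0.058, adjusted p 0.113).

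At E16.5 the estimates were further below 0 but the WT libraries were spread. The median was -0.25 for mitosis genes, -0.19 for S phase genes and for G1 cyclins, and -0.051 for transcription factors. All 14 S phase genes and 21 of 22 mitosis genes had a lower KO estimate, and 14 members had an unadjusted p under 0.05, all lower (6.58% of all genes were). None of the 44 had groups that did not overlap (2.79% of all genes lay wholly lower). Rrm1 had the smallest p: it was at 79.4, 85.2, 90.7 and 91.8 CPM in WT against 72.0, 75.03, 67.4 and 80.2 CPM in KO (log2 fold change -0.25, SE 0.064, adjusted p 0.240 in edgeR and 0.0302 in DESeq2). The highest KO library lay above the lowest WT library by under 1 CPM.

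Pcna at E16.5 was at 110.6, 108.8, 127.8 and 134.4 CPM in WT against 98.2, 109.7, 93.9 and 100.6 CPM in KO (log2 fold change -0.27, SE 0.074, adjusted p 0.262 in edgeR and 0.0380 in DESeq2). Top2a was at 140.1, 147.3, 195.7 and 194.4 CPM in WT against 126.9, 139.3, 111.5 and 142.5 CPM in KO (log2 fold change -0.40, SE 0.13, adjusted p 0.326 in edgeR and 0.0273 in DESeq2). In both genes WT replicates 3 and 4 were high and replicates 1 and 2 lay close to the KO libraries.

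That split of the WT libraries held for the roles as a whole. The mean log2 CPM of the 22 mitosis genes was 4.89, 4.76, 5.29 and 5.23 in WT replicates 1 to 4 and 4.82, 4.91, 4.63 and 4.95 in the KO replicates. The neuron marker sum was lower in the libraries with the higher cell cycle levels, at 7440 and 7179 CPM in WT replicates 3 and 4, 8120 and 8260 CPM in WT replicates 1 and 2, and 7368 CPM in KO replicate 4 against 7890 to 7985 in the other KO libraries. The neural progenitor sum was 1585, 1596, 1640 and 1781 CPM in WT and 1563, 1522, 1436 and 1585 CPM in KO. Erythroid markers summed to 679 to 1427 CPM in WT and 531 to 784 CPM in KO. The part of these shifts in the KO estimates was not tested. Without WT replicate 3 the S phase median was -0.10 and the mitosis median -0.19. Without WT replicate 2 they were -0.28 and -0.32. WT replicate 1 had the high ribosomal RNA share of 3.75% and stood apart from the other WT libraries (chi-square per degree of freedom 41.8 to 43.1). Without it, 2903 of 17630 genes had an unadjusted p under 0.05 in edgeR, against 2001 of 17328 with it. No member passed when any 1 library was left out.

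The other members with an unadjusted p under 0.05 at E16.5 besides Rrm1, Pcna, Top2a and Ccnd1 had estimates between -0.26 and -0.38. Tyms, the synthase of thymidylate, was at 19.6, 20.7, 22.7 and 25.6 CPM in WT against 17.9, 16.7, 15.6 and 20.7 CPM in KO (log2 fold change -0.33, SE 0.11, adjusted p 0.302). Ccnb1, the cyclin B1 partner of CDK1, was at 33.1, 35.3, 47.6 and 48.9 CPM in WT against 32.3, 33.4, 28.0 and 34.7 CPM in KO (log2 fold change -0.38, SE 0.13, adjusted p 0.335). Both repeat the high WT replicates 3 and 4. The adjusted p was 0.310 for Hells and 0.420 for Aurka, and lay between those values for Ndc80, Ccna2, Chaf1b, Kif11, Birc5 and Bub1. These members were named after their values were seen.

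Ccnd1 at E16.5 was at 31.3, 32.6, 39.5 and 36.3 CPM in WT and at 29.0, 25.1, 28.8 and 34.4 CPM in KO (log2 fold change -0.27, SE 0.097, adjusted p 0.343). E2f2, of smallest p among the transcription factors, was at 7.87, 7.78, 10.6 and 12.1 CPM in WT and at 8.42, 7.95, 7.17 and 9.05 CPM in KO (-0.25, SE 0.15, adjusted p 0.545). The groups of both genes overlapped.

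**Figure D3:**
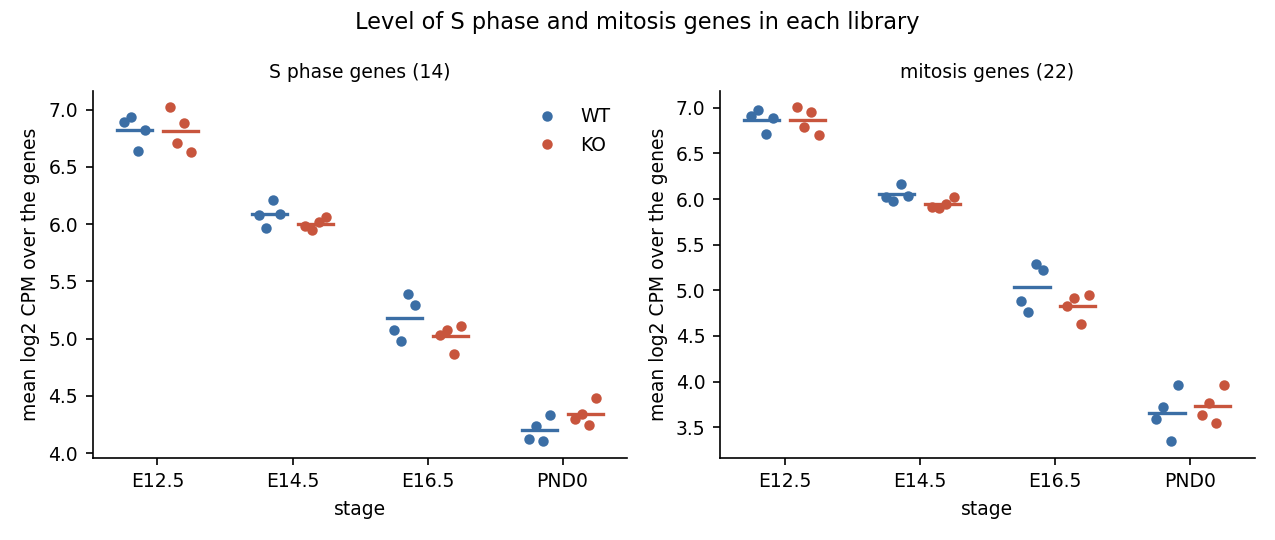
Mean log2 CPM over the 14 S phase genes (left) and the 22 mitosis genes (right) in each of the 32 libraries, by stage. Points are libraries (WT blue, KO red) and bars are group means. Levels fall with stage in both genotypes, the E16.5 WT libraries split into a higher and a lower pair, and WT and KO overlap at each stage for the mitosis genes.

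At PND0 the estimates lay on both sides of 0, and no test compared the roles. The median was 0.15 for S phase genes, with 12 of 14 above 0 (49.9% of all genes were), and 0.22 for transcription factors, with 4 of 4 above 0. It was 0.029 for mitosis genes, with 12 of 22 above 0, and -0.13 for G1 cyclins, with 1 of 4 above 0. Pcna had the smallest p. It was at 58.5, 60.2, 52.6 and 57.1 CPM in WT and at 68.3, 69.0, 68.8 and 73.6 CPM in KO, and every KO library lay above every WT library (log2 fold change 0.29, SE 0.081, adjusted p 0.0863 in edgeR and 0.0252 in DESeq2). E2f2 was the other member whose groups did not overlap, where 6.03% of all genes lay wholly higher in KO. It was at 3.22, 2.98, 2.74 and 3.98 CPM in WT against 5.17, 4.50, 4.07 and 5.60 CPM in KO (log2 fold change 0.57, SE 0.22, adjusted p 0.189). A joint fit over all 32 libraries gave it an adjusted p of 0.0198, in a fit that called 1205 of 19541 genes at that stage and 1 of the 44 members.

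Cdk1, the kinase of mitotic entry, was at 10.1, 12.1, 8.83 and 11.2 CPM in WT and at 11.8, 13.3, 13.3 and 15.01 CPM in KO, with overlapping groups (log2 fold change 0.33, SE 0.15, adjusted p 0.266). The D cyclins among the members, Ccnd1 and Ccnd2, lay on the other side. Ccnd3, a D cyclin on the lists of related genes, had a KO estimate of -0.40 at E12.5, and its PND0 estimate is not given here. In the edgeR interaction fit its KO effect was 0.63 higher at PND0 than at E12.5. That change over stages did not pass (adjusted p 0.343). Ccnd2 was at 167.9, 175.6, 153.6 and 168.9 CPM in WT against 131.5, 145.8, 101.1 and 166.3 CPM in KO (log2 fold change -0.30, SE 0.12, adjusted p 0.196), and Ccnd1 had a log2 fold change of -0.20 (SE 0.12, adjusted p 0.408). Mki67 was at 39.2 ± 5.37 CPM in WT against 39.2 ± 6.27 CPM in KO (log2 fold change -0.010, SE 0.13). The mitosis median depended on single libraries: leaving out WT replicate 3 gave -0.091, leaving out KO replicate 4 gave -0.065, and leaving out WT replicate 4 gave 0.20.

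**Figure D4:**
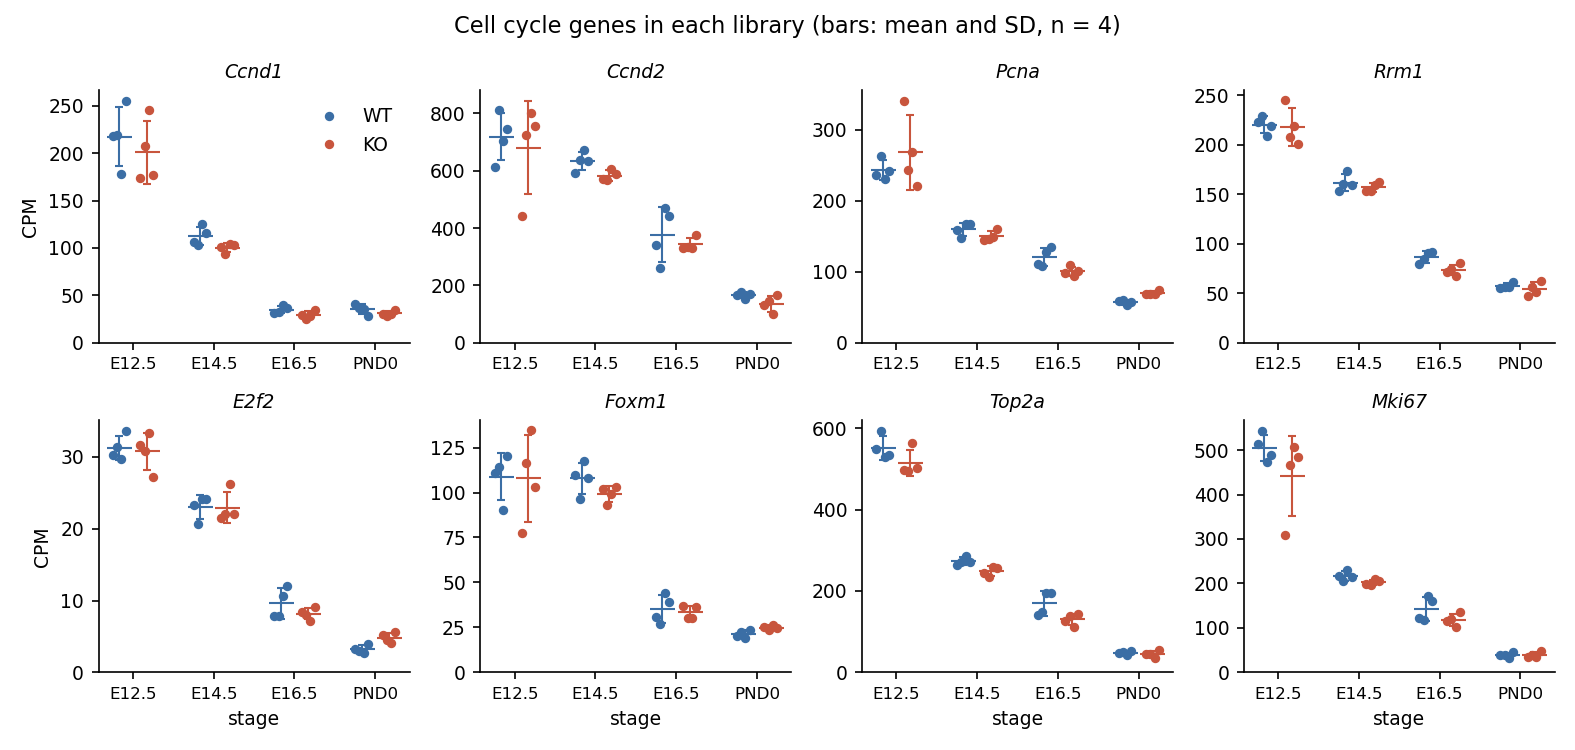
Level in CPM of 8 cell cycle genes in each of the 32 libraries, by stage, on linear axes that start at 0. Points are libraries (WT blue, KO red), and bars are the mean and SD of 4 libraries. Pcna at PND0 shows 4 KO libraries between 68.3 and 73.6 CPM, all above the WT libraries at 52.6 to 60.2 CPM, and the KO library of E12.5 that is low for Mki67 and Ccnd2 is high for Pcna.

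Other values differed between the PND0 libraries as well. Choroid plexus markers summed to 307 to 609 CPM in WT and 603 to 957 CPM in KO, with all 6 genes counted in every library. Most of that sum was Ttr, with a mean of 465.3 CPM in WT and 705.5 CPM in KO. The KO estimate was above 0 for 4 of the 6 genes and below 0 for 2, and none passed. Erythroid markers summed to 197 to 261 CPM in WT and 228 to 2263 CPM in KO, the highest being KO replicate 3, with up to 4 of the 9 genes at 0 in a WT library and up to 3 in a KO library. Neural progenitor markers summed to 1336 to 1400 CPM in WT and 1341 to 1820 CPM in KO, with 10 of 12 estimates above 0 and 2 below. The ribosomal RNA gene held 1.80 to 2.78% of counts in WT and 1.16 to 2.09% in KO. The part of these values in the result was not tested. Transcript length was compared with the estimates: across the 44 members Spearman's rho between length and KO log2 fold change was -0.49 at PND0, beside -0.34 across all genes, and -0.54 and -0.23 at E12.5. At E14.5 it was 0.14 and 0.035, and at E16.5 the members and all genes had opposite signs, -0.32 and 0.21. With base composition (GC percent) rho was 0.53 for members and 0.22 for all genes at PND0, and 0.62 and 0.32 at E16.5, but -0.41 and -0.13 at E14.5 and 0.19 and 0.046 at E12.5. The genes share their libraries, and these values are descriptions.

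At PND0 the 22 shorter members had a median log2 fold change of 0.14, with 18 above 0, and the 22 longer members a median of -0.0021, with 11 above 0. With offsets for length the medians were 0.099 and 0.037. The fit with those offsets called 46 of 17420 genes at PND0, against 250 of 17420 in the fit without them. With those offsets the S phase median was 0.14 and the mitosis median 0.0078. The members range from 1518 to 11130 bases in transcript length, the mitosis genes Cenpf, Mki67 and Cenpe being among the longest, with estimates at PND0 of -0.23, -0.010 and -0.22.

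**Figure D5:**
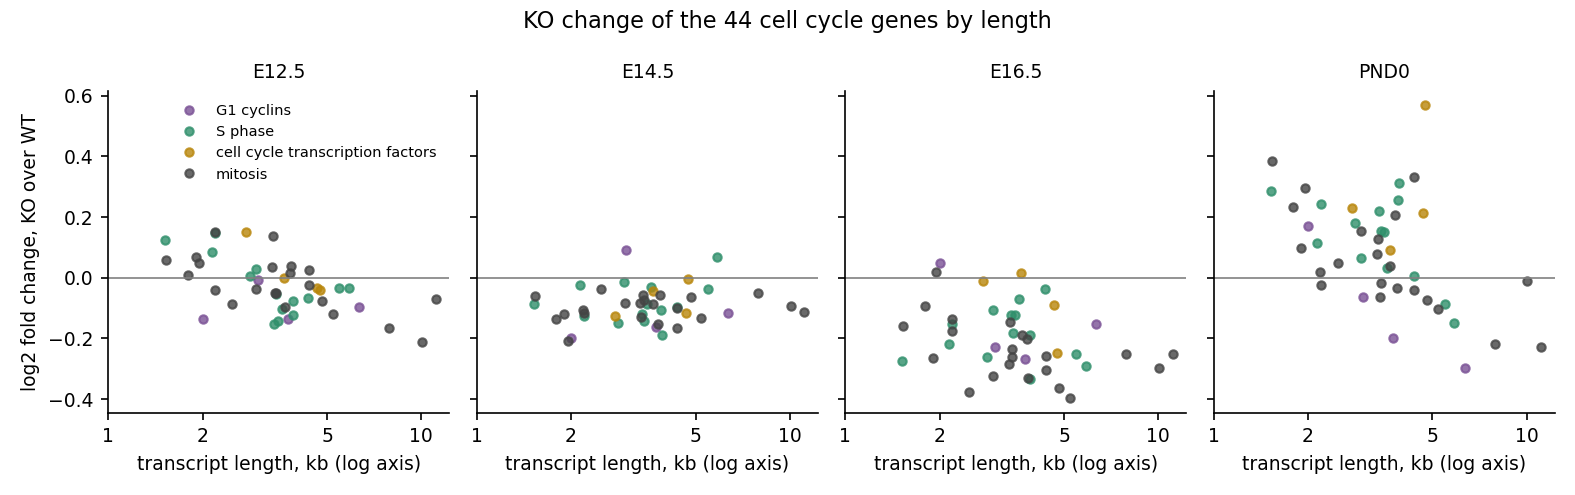
Log2 fold change of KO over WT for each of the 44 cell cycle genes against the length of its longest annotated transcript (kb, log axis), by stage. Each point is 1 gene, coloured by role, and the grey line is 0. At E12.5 and PND0 longer genes tend to have lower estimates (Spearman's rho -0.54 and -0.49 over 44 genes), with -0.32 at E16.5 and 0.14 at E14.5.

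Whether the KO effect differed between stages was tested directly, with an interaction term over all 32 libraries. None passed (0 of 44, beside 0.0256% of 19541 genes), and 5 had an unadjusted p under 0.05 (13.5% of all genes did). Pcna had the smallest adjusted p, 0.152, with KO log2 fold changes of 0.12, -0.085, -0.27 and 0.29 from E12.5 to PND0 in the fits by stage. In DESeq2 its adjusted p was 0.0278, and without E12.5 KO replicate 1, the library with the high ribosomal RNA share, it was 0.00687 in edgeR. Those fits called 344 of 15332 and 797 of 20007 genes, against 5 of 19541 in the edgeR fit of all libraries, and in each 1 of 44 members passed. E2f2 followed with an adjusted p of 0.174, and Tyms, Cdk1 and Ccna2 were the others under 0.05 before adjustment.

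Of the 32, 40, 19 and 14 genes on the lists of related genes, 1 passed at E14.5 and 1 at PND0, where 0.527 and 1.44% of all genes did. Cdca3, a trigger of mitotic entry, was lower at E14.5, at 58.4, 53.2, 65.2 and 58.9 CPM in WT against 50.8, 46.6, 48.3 and 54.2 CPM in KO with overlapping groups (log2 fold change -0.23, SE 0.056, adjusted p 0.0402). Cit was lower at PND0 in the fit without length offsets. Its WT libraries read 90.7, 90.2, 92.6 and 85.3 CPM and its KO libraries 71.7, 68.1, 57.8 and 52.6 CPM, without overlap, as for 5.84% of all genes (log2 fold change -0.53, SE 0.098, adjusted p 0.0203). At E16.5 its estimate was on the other side, 0.27 (SE 0.073, adjusted p 0.261), with KO libraries at 34.2 to 39.9 CPM and WT libraries at 27.9 to 32.6 CPM. No other gene of the 32 replication genes, 40 mitosis genes, 19 cyclins, CDKs and E2Fs or 14 brakes passed at any stage. Their medians in KO were -0.067, -0.060, -0.067 and 0.0080 at E14.5 and -0.12, -0.26, -0.088 and -0.050 at E16.5, in that order of lists. Among the brakes, Cdkn1a at E16.5 was at 25.2 ± 2.10 CPM in WT against 31.4 ± 2.52 CPM in KO (log2 fold change 0.30, SE 0.082, adjusted p 0.261), a gene named after its values were seen.

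Some members share sequence or position with other genes, and the sources do not state whether counting used strand. A gene on the other strand overlaps 15 of the 44 members, protein-coding for 9 of them, among them Ccnd1, Ccne2 and Cdc20. Annotated pseudogenes are named after Ccnb1, Ccnb2, Pcna and Tyms. Counts of these genes could include reads of those neighbours.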

How the data were processed

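The authors deposited 1 table of raw counts per gene symbol for each stage. Per the submitters' processing notes, HISAT2, SAMtools, featureCounts and DESeq2 were used with the mm10 build; versions, annotation and strand setting are not given in the sources used here. The counts were analysed with edgeR 4.0.16 in R 4.3.3: filterByExpr (minimum count 10, total 15), TMM scaling, robust quasi-likelihood fits of the 8 libraries compared, and Benjamini-Hochberg adjustment over all genes tested, with a threshold of 0.05. Columns of per-sample values left unused numbered 0. Levels are CPM under TMM factors of all 32 libraries together, and fold changes come from each comparison's own fit. Mean log2 CPM used a prior count of 2. Lengths, GC and positions came from GENCODE M21 (GRCm38). DESeq2 1.42.0 and other settings served as alternatives, and offsets for GC content, with some settings for list medians, were added after seeing the data. The fits were tested on simulated data. Replicate libraries differed by more than counting noise (chi-square per degree of freedom 2.90 to 115 over 48 pairs). The members and lists were chosen with earlier results of these data known. The rule for named genes took Mki67, Pcna, Ccnd1, Ccnd2, the member of smallest p of each role and stage, the largest and smallest WT fall of each role, and the 2 of smallest p for the change of the KO effect with stage, and related genes past the threshold. Tyms and Ccnb1 were named after their values were seen. Depth ran from 13868100 to 28318900 counts, where 3 counts come to 0.106 to 0.228 CPM.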

Additional observations from a re-analysis of the deposited data

Results flagged for a closer look

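In 10 of the 176 groups of 4 libraries examined, 1 library lay far from the other 3 by Dixon's criterion (the gap to the nearest library over the range), where chance gives about 1 in 20. At E12.5 the mean log2 CPM of the G1 cyclins was 6.375 in WT replicate 3 against 6.686 to 6.726, Top2a was at 562.8 CPM in KO replicate 3 against 494.0 to 503.3, and Plk1 was at 61.34 CPM in KO replicate 4 against 75.94 to 78.44. At E14.5 WT replicate 3 was high for Mcm3 (100.9 CPM against 90.40 to 91.91) and Cdc20 (81.14 CPM against 67.21 to 69.49), and KO replicate 3 was high for E2f2 (26.16 CPM against 21.43 to 22.11). At E16.5 Ccnd2 was at 375.1 CPM in KO replicate 4 against 331.4 to 335.1. At PND0 Mcm2 was at 17.54 CPM in WT replicate 3 against 23.44 to 24.59, Rrm1 at 61.82 CPM in WT replicate 4 against 55.54 to 56.38, and Pcna at 73.63 CPM in KO replicate 4 against 68.29 to 69.02.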

How the results depend on the processing

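Counts of members that fell along the WT or KO course stayed within 1.5 times of the reported ones in every alternative run, and no called value changed sign. The KO counts, 0 in the reported fits, moved. At E14.5 they were 4 without a filter on low counts (Ccnd1, Ccnd2, Aurkb, Top2a), 1 in DESeq2, 1 with length offsets and 1 with GC offsets (Top2a in each), and 0 to 2 when 1 library was left out (2 without WT replicate 2: Ccnd1 and Foxm1). At E16.5 they were 6 without the filter (Pcna, Ccna2, Rrm1, Top2a, Ccnb1, Kif11) and 3 in DESeq2. At PND0 they were 1 without the filter (Ccnd2), 1 in DESeq2 (Pcna) and 1 in the fit of all 32 libraries (E2f2). Without the filter, 146 of 33585 genes passed at E14.5, 233 of 34379 at E16.5 and 1091 of 33525 at PND0. DESeq2 passed 122 of 10312, 168 of 3407 and 921 of 12809 genes at those stages. The fit of all 32 libraries passed 1205 of 19541 at PND0. Without E14.5 WT replicate 2, 155 of 18096 genes passed at E14.5. For the change of the KO effect with stage the count was 1 in DESeq2 (Pcna) and 0 to 1 when 1 library was left out. The cause was not tested. With the replicate number as a block, 2 members passed at E14.5 (Ccnd2 and Top2a), in a fit that called 131 of 17837 genes. Same-numbered WT and KO libraries had correlations of their deviations from -0.38 to 0.32, with both signs in every stage, so the numbers were not taken as pairs. Leaving out 1 library at a time moved the E12.5 medians across 0, from -0.125 to 0.00263 for S phase genes and from -0.0904 to 0.0184 for mitosis genes, and the PND0 mitosis median from -0.0906 to 0.198. The lowest member count in a library was 26, so counting noise is largest for the least abundant genes at PND0.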
